A study of Mus musculus with 7 samples.

Results

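This report covers 33 genes of the tricarboxylic acid (TCA) cycle and of its entry routes from pyruvate and glutamine, measured in Tim4+ resident macrophages of the mouse peritoneal cavity. The genes were taken by symbol from a table of 57010 genes, each symbol matched 1 row, and all 33 passed the filter on low counts that left 15981 genes. The cells came from C57BL/6 mice and were sorted from peritoneal fluid by CD11b, MHC class II and Tim4. There were 4 libraries from mice on day 12 after an injection of m204 MTO and 3 libraries from mice in steady state. The meaning of MTO is not spelled out in the labels, peritoneal colorectal cancer stands in the series title, and no sex, age or genetic change is given for either group. The libraries hold sorted cells, so a change in RNA per cell and a change in the mix of sorted cells cannot be told apart. The labels speak of biological replicates but do not say which mice or pools they were, so p-values here rest on the spread from library to library.

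The TCA cycle oxidises acetyl groups to carbon dioxide in the mitochondrial matrix and passes the electrons to the respiratory chain. Pyruvate enters the matrix through the carrier Mpc1-Mpc2 and becomes acetyl-CoA through pyruvate dehydrogenase, which Pdk kinases switch off and Pdp phosphatases switch on. Glutamine-derived carbon enters as 2-oxoglutarate, which glutamate dehydrogenase or a transaminase makes from glutamate. In activated macrophages Acod1 draws cis-aconitate out of the cycle to make itaconate, a metabolite that inhibits succinate dehydrogenase.

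At day 12, 9 of the 33 genes rose and 0 fell with edgeR's quasi-likelihood test at an adjusted p of 0.05. Over all genes tested, 20.3% were called, 10.1% higher and 10.2% lower. The rising genes were Mdh2, Idh3a, Fh1, Suclg1 and Cs of the cycle, Got1 and Mdh1 of the malate-aspartate shuttle, the pyruvate dehydrogenase subunit gene Pdhb and the kinase gene Pdk1. Their fitted changes were small, between 1.25-fold for Pdk1 and 1.598-fold for Mdh2, and 0 of the 33 passed edgeR's glmTreat test against a change of 1.5-fold, which 7.04% of all genes passed. The median log2 fold change was 0.27 over the 33 genes and 0.00 over all genes tested. The fitted fold was above 1 for 30 of the 33, against 50.3% of all genes. The 4 day 12 libraries did not overlap the 3 steady-state libraries for 17 of the 33 genes, 16 with day 12 higher and 1 with day 12 lower. Over all genes tested 35.0% did not overlap, 16.5% with day 12 higher and 18.5% with day 12 lower. Of the 24 members that were not called, 17 had a 95% interval that lay within 1.5-fold in both directions.

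Leaving out single libraries moved these counts. The number of members called was 3 without steady-state replicate 1, 3 without replicate 2 and 1 without replicate 3, with 1868, 1804 and 1761 genes called over the whole table. Without day 12 replicate 1 it was 6, with 2480 genes called over the whole table. Without day 12 replicate 4 it was 17, with 4599 genes called over the whole table. The fitted fold stayed above 1 for 28 to 32 of the 33 genes over the 15 alternative fits.

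**Figure D1:**
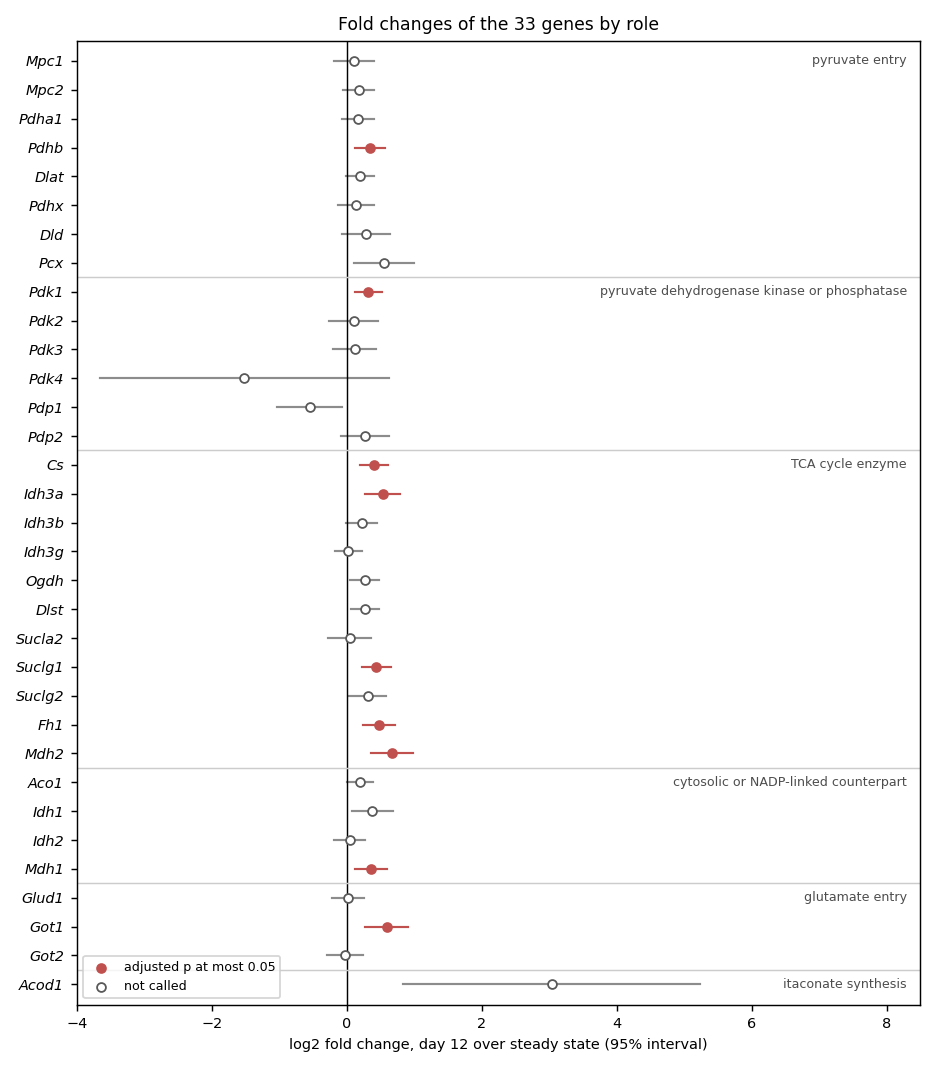
Log2 fold changes of the 33 genes, day 12 over steady state, with 95% intervals from the edgeR fit (4 day 12 and 3 steady-state libraries); rows are grouped by role and filled red points passed an adjusted p of 0.05. The 9 called genes lie between 0.32 and 0.68, while Pdk4 and Acod1 have the widest intervals.

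Promoter sequences are shown for Mdh2, the called member with the lowest p, for Cs, the called gene of the step that opens the cycle, and for Acod1, the gene with the largest fitted change. They are RefSeq sequences of build GRCm38.p6, which differs from the GRCm39 build of the counts, and run from 250 bases before to 50 bases after the start of the transcript. The promoter of Mdh2 (chr5:135778399-135778698, plus strand) held 27 CpG dinucleotides and no TATA box, and the capitals mark 3 places, at 190, 63 and 29 bases before the start, where the element TCTCGCGAG was matched on the plus strand and, shifted by 1 base, on the other. This element was searched for after the sequence had been read, and 0.676% of 32851 promoters held it. The promoter of Cs (chr10:128337477-128337776, plus strand) held 18 CpG dinucleotides and a CCAAT box at 116 and at 55 bases before the start, in capitals. That of Acod1 (chr14:103046762-103047061, plus strand) held 2 CpG dinucleotides, a TATA box 28 bases before the start and a CCAAT box 107 bases before it.
Mdh2: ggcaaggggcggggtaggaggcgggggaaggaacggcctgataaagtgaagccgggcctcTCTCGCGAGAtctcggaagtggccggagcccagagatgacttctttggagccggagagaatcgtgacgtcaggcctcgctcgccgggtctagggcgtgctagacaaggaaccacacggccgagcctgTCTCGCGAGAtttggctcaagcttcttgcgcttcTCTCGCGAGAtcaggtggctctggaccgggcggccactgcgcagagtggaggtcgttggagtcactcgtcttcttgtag
Cs: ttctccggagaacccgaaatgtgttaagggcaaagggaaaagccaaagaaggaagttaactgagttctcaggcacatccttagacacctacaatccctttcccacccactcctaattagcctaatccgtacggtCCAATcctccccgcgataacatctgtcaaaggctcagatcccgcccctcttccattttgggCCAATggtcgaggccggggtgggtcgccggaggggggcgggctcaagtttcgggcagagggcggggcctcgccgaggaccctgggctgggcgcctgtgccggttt
Acod1: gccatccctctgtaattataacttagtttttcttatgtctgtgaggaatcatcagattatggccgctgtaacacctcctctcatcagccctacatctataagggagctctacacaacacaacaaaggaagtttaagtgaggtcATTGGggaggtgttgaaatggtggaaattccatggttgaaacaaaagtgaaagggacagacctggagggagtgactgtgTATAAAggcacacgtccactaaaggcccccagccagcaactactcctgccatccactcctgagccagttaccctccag

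Promoters were listed for 31 of the 33 genes (the start listed at the top for each was read), with a median of 21 CpG dinucleotides against 7 over all promoters. The count of Acod1 was the lowest of the 31. A TATA box, TATAAA, was found in Got2 and Acod1 and in 0 of 8 called genes with a promoter, while 13.6% of all promoters held it. A CCAAT box was found in 20 of the 31 and in 5 of the 8 called genes (Cs, Fh1, Mdh1, Pdhb and Got1), against 37.4% of all promoters. The ETS element CCGGAAG was found in 5 of the 31 (Idh3b, Dlst, Glud1, Mpc1 and Idh3g) and in 8.86% of all promoters. The E-box CACGTG was in 3 (Pdp2, Pdk2 and Pcx; 7.15% of all), the IRF element GAAANNGAA in Suclg1 and Suclg2 (8.56%) and the ERR element AAGGTCA in Got1 (4.72%). At the start read, the 31 held no match for the NRF1 element GCGCATGCG (1.75% of all promoters) or the AP-1 element TGANTCA (7.81%). The same held for the STAT element TTCNNNGAA (8.3%) and the NF-kB element GGGANTTTC (1.11%). Other starts listed for Ogdh, not counted here, held the NRF1 element at 15 and at 36 bases before the start, and also the E-box and the ERR element. The shares of all promoters were not limited to 1 start per gene. Each element was read on both strands and is a match of letters in this window only.

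The deposited values were read counts, given here as CPM (read counts scaled to a common library size) after TMM scaling, with mean ± SD over n = 4 day 12 and n = 3 steady-state libraries. Totals ran from 34578834 to 38586694 counts at day 12 and from 32077050 to 36201021 in steady state. The 33 genes held between 1176 reads (Pdp1) and 119957 reads (Idh1) over the 7 libraries. The macrophage receptor genes Csf1r and Adgre1 stood at 1409 to 1616 and 3919 to 5203 CPM at day 12, against 1886 to 2236 and 2471 to 2766 CPM in steady state. Timd4, the gene for Tim4, was lower at day 12, at 399 to 643 CPM, against 882 to 1043 CPM in steady state. Of 8 peritoneal macrophage markers, 4 were called higher (Adgre1, Itgam, Gata6 and Mertk) and 2 lower (Csf1r and Timd4). Lyve1 and Cd68 were not called. Over all genes tested, 10.1% were called higher and 10.2% lower. The 8 markers summed to 9100 to 10500 CPM at day 12, against 7390 to 7897 CPM in steady state. Markers of other cells differed between the groups for some lists, while the sums of T and NK cell, eosinophil and mast cell markers overlapped. The summed level of 9 B cell markers was 21.97 to 48.4 CPM at day 12, against 6.86 to 10.7 CPM in steady state, and 5 of the 9 were called higher. That of 8 markers of epithelial tumour cells was 1.99 to 3.08 CPM at day 12, against 0.112 to 0.326 CPM in steady state, most of it Cdh1 at day 12, while Krt20, Cdx1 and Cdx2 had no read. The 8 dendritic cell and monocyte markers summed to 222 to 402 CPM at day 12, against 78.1 to 101.6 CPM in steady state, with 1 called higher and 1 lower, and most of the day 12 sum was Cd209a and Plac8. The part of such cells in the results was not tested. Day 12 replicate 4 held 0.858% of its counts in mitochondrially encoded transcripts, against 1.66% to 1.79% in the other day 12 libraries and 1.11% to 1.25% in steady state.

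Among the 33 genes, the lowest p was that of Mdh2, mitochondrial malate dehydrogenase, which regenerates oxaloacetate (ENSMUSG00000019179, GRCm39 chromosome 5, 135807334 to 135819252, plus strand). It had 129, 134, 126 and 176 CPM in day 12 replicates 1, 2, 3 and 4, against 85.7, 96.3 and 82.7 CPM in steady-state replicates 1, 2 and 3. All day 12 libraries lay above all steady-state libraries, and replicate 4 stood above the other day 12 libraries. The log2 fold change was 0.68 (SE 0.14, edgeR adjusted p = 0.00877) and was 0.56 without day 12 replicate 4. Its promoter is the sequence with the 3 TCTCGCGAG places. Without steady-state replicate 3 the adjusted p was 0.0544.

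Cs, citrate synthase, which joins acetyl-CoA to oxaloacetate (ENSMUSG00000005683, chromosome 10, 128173603 to 128198348, plus strand), had 167, 159, 157 and 171 CPM at day 12, against 122, 125 and 123 CPM in steady state. The groups were well apart and the spread within each was small. The log2 fold change was 0.40 (SE 0.09, edgeR adjusted p = 0.0132). The adjusted p was above 0.05 without any 1 of the steady-state libraries and reached 0.0741.

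Fh1, fumarate hydratase (ENSMUSG00000026526, chromosome 1, 175427940 to 175453201, minus strand), had 44.1, 42.9, 45.4 and 38.4 CPM at day 12, against 33.01, 29.5 and 29.6 CPM in steady state. The lowest day 12 library, replicate 4, was still above the highest of steady state. Its log2 fold change was 0.48 (SE 0.10, edgeR adjusted p = 0.0117), and the call was lost without steady-state replicate 2 or 3, with an adjusted p of up to 0.0703.

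Isocitrate dehydrogenase 3, the NAD-linked enzyme of the cycle, is built from a catalytic alpha and from beta and gamma subunits. Of its 3 genes, 1 was called, against 20.3% of all genes tested. Idh3a (ENSMUSG00000032279, chromosome 9, 54493618 to 54511945, plus strand) had 41.8, 46.3, 36.8 and 37.3 CPM at day 12, against 28.5, 29.3 and 26.3 CPM in steady state. The groups did not overlap, and the log2 fold change was 0.53 (SE 0.12, edgeR adjusted p = 0.0115), with the call lost only without steady-state replicate 3 (adjusted p = 0.0698) among the 15 alternatives. Idh3b averaged 88.1 ± 7.36 CPM at day 12 and 75.8 ± 1.42 CPM in steady state and was not called (log2 fold change 0.22, 95% interval -0.01 to 0.44). Idh3g averaged 74.4 ± 2.49 CPM at day 12 and 73.1 ± 1.94 CPM in steady state (log2 fold change 0.03, 95% interval -0.17 to 0.22). Per kilobase of exon, the level of Idh3a over that of Idh3g was 0.257 to 0.346 at day 12, against 0.197 to 0.211 in steady state, so these ranges did not overlap. Idh3b ends 5 bases inside Nop56 on the other strand, and Nop56 had 35.7% as many reads as Idh3b.

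Succinyl-CoA ligase pairs the alpha subunit Suclg1 with an ADP-forming beta subunit, Sucla2, or a GDP-forming one, Suclg2. Suclg1 (ENSMUSG00000052738, chromosome 6, 73225365 to 73253894, plus strand) had 44.2, 42.3, 43.6 and 46.1 CPM at day 12, against 30.8, 35.2 and 31.4 CPM in steady state. It rose without overlap (log2 fold change 0.44, SE 0.10, edgeR adjusted p = 0.0122), and the call was lost without steady-state replicate 1 or 3 (adjusted p up to 0.0765). Suclg2 stood at 36.5 ± 4.50 CPM at day 12 and 29.5 ± 1.33 CPM in steady state, also without overlap, but was not called (log2 fold change 0.31, edgeR adjusted p = 0.101). Sucla2 was at 45.3, 45.01, 44.4 and 31.3 CPM at day 12, against 39.4, 41.2 and 40.2 CPM in steady state, so that day 12 replicate 4 alone lay below every steady-state library. Per kilobase, Sucla2 over Suclg2 was 1.15 to 1.51 at day 12, against 1.52 to 1.67 in steady state.

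The 2-oxoglutarate dehydrogenase complex, which makes succinyl-CoA, consists of Ogdh, Dlst and the shared Dld. Ogdh averaged 192 ± 10.7 CPM at day 12 and 159.7 ± 7.001 CPM in steady state (log2 fold change 0.27, 95% interval 0.05 to 0.48, edgeR adjusted p = 0.0833). Dlst averaged 119 ± 4.67 CPM at day 12 and 98.4 ± 1.57 CPM in steady state (log2 fold change 0.27, 95% interval 0.07 to 0.47, edgeR adjusted p = 0.0613). Neither overlapped between the groups and neither was called, although Dlst passed in 5 of 15 alternatives, among them DESeq2 (adjusted p = 0.0327). Dld, the dehydrogenase that both 2-oxoacid complexes share, had 81.2, 82.3, 84.2 and 53.3 CPM at day 12, against 62.5, 60.4 and 62.2 CPM in steady state. Its day 12 replicate 4 lay below every steady-state library and the others above them, and without it the log2 fold change was 0.42 (edgeR adjusted p = 0.00197) in place of 0.29 (0.234).

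**Figure D2:**
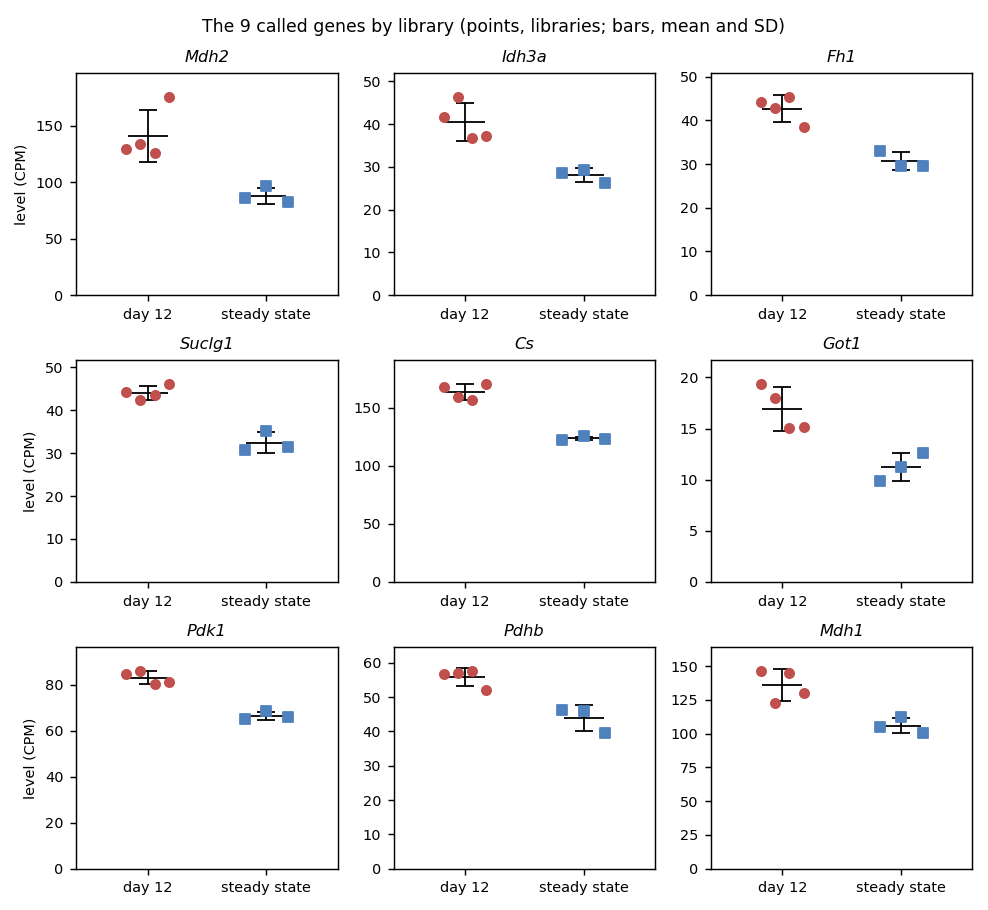
CPM of the 9 called genes in every library, with day 12 (red circles, n = 4) left of steady state (blue squares, n = 3); black bars give mean ± SD and each axis starts at 0. In each of the 9 panels all day 12 points lie above all steady-state points, and Mdh2 in replicate 4 reaches 176 CPM.

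The cycle was read further with 4 genes outside the 33, the succinate dehydrogenase subunits Sdha to Sdhd. The membrane anchor subunits rose, Sdhd (94.8 ± 4.16 CPM at day 12 and 62.8 ± 2.17 CPM in steady state, log2 fold change 0.59, edgeR adjusted p = 0.00213) and Sdhc with a log2 fold change of 0.38 (adjusted p = 0.0161). The flavoprotein Sdha (log2 fold change 0.22, 95% interval -0.02 to 0.45) and the iron-sulphur subunit Sdhb (0.09, 95% interval -0.12 to 0.30) were not called. Of the 16 genes of the cycle described here, 7 were called higher, 0 lower and 9 not at all, and the fitted fold was above 1 for all 16. Over all genes tested, 10.1% were called higher and 10.2% lower, and the fitted fold was above 1 for 50.3%. Sdhc lost its call without any 1 of the steady-state libraries.

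**Figure D3:**
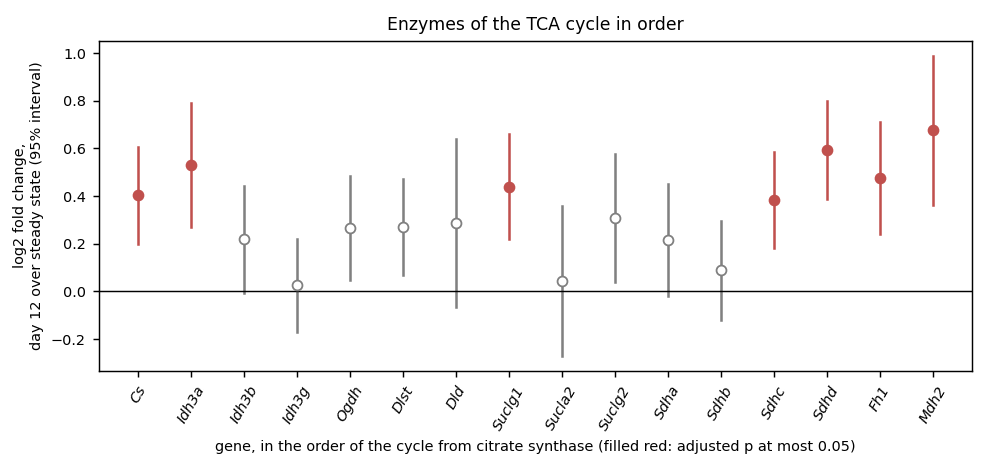
Log2 fold changes (day 12 over steady state, 95% intervals) of 16 genes of the cycle, in the order of its steps from citrate synthase to malate dehydrogenase; filled red points passed an adjusted p of 0.05. The 7 called genes are Cs, Idh3a, Suclg1, Sdhc, Sdhd, Fh1 and Mdh2, while Idh3g, Sucla2 and Sdhb lie near 0.

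Of the 8 genes at the entry of pyruvate, 1 was called (12.5%, against 20.3% of all genes tested). The fitted fold was above 1 for all 8 (median log2 fold change 0.19), against 50.3% of all genes. Pdhb, the beta subunit of the E1 enzyme of pyruvate dehydrogenase (ENSMUSG00000021748, chromosome 14, 14296748 to 14303777, plus strand), had 56.7, 57.0, 57.7 and 52.0 CPM at day 12, against 46.3, 45.8 and 39.6 CPM in steady state. The groups did not overlap (log2 fold change 0.35, SE 0.10, edgeR adjusted p = 0.0370). The call was lost in 6 of 15 alternatives, all of them fits without a library or without the filter on low counts.

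Pdha1, the alpha subunit of the same E1 enzyme, had 179, 181, 165 and 148 CPM at day 12, against 156, 147 and 147 CPM in steady state. Day 12 replicate 4 was among the steady-state values, and of 15 alternatives the gene was called only without that library (adjusted p = 0.0422). With all libraries its log2 fold change was 0.17 (95% interval -0.07 to 0.40). Map3k15, which overlaps Pdha1 on the other strand, had 29.7% as many reads, and whether reads were counted by strand was not stated in the labels. Dlat, the acetyltransferase core, stood at 52.9 ± 3.34 CPM at day 12 and 46.2 ± 0.644 CPM in steady state without overlap, yet was not called (log2 fold change 0.20, edgeR adjusted p = 0.170). Pdhx, which anchors Dld to that core, had a log2 fold change of 0.13 (95% interval -0.13 to 0.40).

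The carrier genes Mpc1 and Mpc2 were not called. Mpc2 averaged 33.6 ± 2.78 CPM at day 12 and 29.7 ± 0.381 CPM in steady state (log2 fold change 0.18, 95% interval -0.05 to 0.41). Mpc1 averaged 17.04 ± 2.09 CPM at day 12 and 15.8 ± 1.32 CPM in steady state (log2 fold change 0.11, 95% interval -0.19 to 0.40). The table lists a pseudogene Mpc1-ps with 49.7% to 87.4% as many reads as Mpc1 in a library, so the level of Mpc1 is uncertain. Pcx, pyruvate carboxylase, which makes oxaloacetate from pyruvate, was at 7.23, 4.95, 6.60 and 4.99 CPM at day 12, against 4.51, 3.98 and 3.67 CPM in steady state. Its groups did not overlap, and it was not called (log2 fold change 0.55, 95% interval 0.10 to 1.00, edgeR adjusted p = 0.0818), except without day 12 replicate 4. Per kilobase of exon its level was 0.0278 ± 0.00485 of that of Pdha1 at day 12 and 0.0212 ± 0.00156 in steady state.

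Of the 6 genes that switch pyruvate dehydrogenase, only the kinase gene Pdk1 was called (16.7%, against 20.3% of all genes tested). Pdk1 (ENSMUSG00000006494, chromosome 2, 71703568 to 71734202, plus strand) had 84.9, 86.2, 80.3 and 81.5 CPM at day 12, against 65.3, 68.7 and 66.0 CPM in steady state. The spread within each group was small beside the gap between them (log2 fold change 0.32, SE 0.09, edgeR adjusted p = 0.0306), and the call was lost in 5 of 15 alternatives, including the fits without any 1 of the steady-state libraries. Pdk2 averaged 21.2 ± 4.01 CPM at day 12 and 19.8 ± 1.73 CPM in steady state, and Pdk3 averaged 16.9 ± 1.49 CPM at day 12 and 15.6 ± 2.78 CPM in steady state. Neither was called.

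Pdk4, a kinase gene induced by fasting and lipid signals in other tissues (ENSMUSG00000019577, chromosome 6, 5483351 to 5496309, minus strand), was set apart by a single library. It had 2.73, 5.66, 5.02 and 12.4 CPM at day 12, against 5.96, 45.6 and 3.801 CPM in steady state. Steady-state replicate 2 held the highest value, and the other steady-state libraries lay within the day 12 range. The fitted log2 fold change was -1.52 (95% interval -3.66 to 0.62, edgeR adjusted p = 0.289) and turned to 0.40 without steady-state replicate 2 (adjusted p = 0.698). Per kilobase, Pdk4 held 3.13% to 12.1% of the summed Pdk1 to Pdk4 level at day 12, against 8.09%, 36.7% and 4.89% in steady state. Pdk1 held 36.0% to 44.8% at day 12, against 40.0%, 24.9% and 38.3% in steady state.

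The phosphatase genes were not called. Pdp1 had 3.90, 5.13, 3.89 and 2.82 CPM at day 12, against 6.11, 5.43 and 5.75 CPM in steady state, and was the only member with all day 12 libraries below all steady-state libraries. Its log2 fold change was -0.55 (95% interval -1.03 to -0.07, edgeR adjusted p = 0.101), and it was called lower only without day 12 replicate 2 (adjusted p = 0.0445). Pdp2 averaged 22.6 ± 3.94 CPM at day 12 and 18.7 ± 2.26 CPM in steady state (log2 fold change 0.27, 95% interval -0.09 to 0.63). Per kilobase, Pdp1 over Pdp2 was 0.189 to 0.309 at day 12, against 0.373 to 0.424 in steady state.

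**Figure D4:**
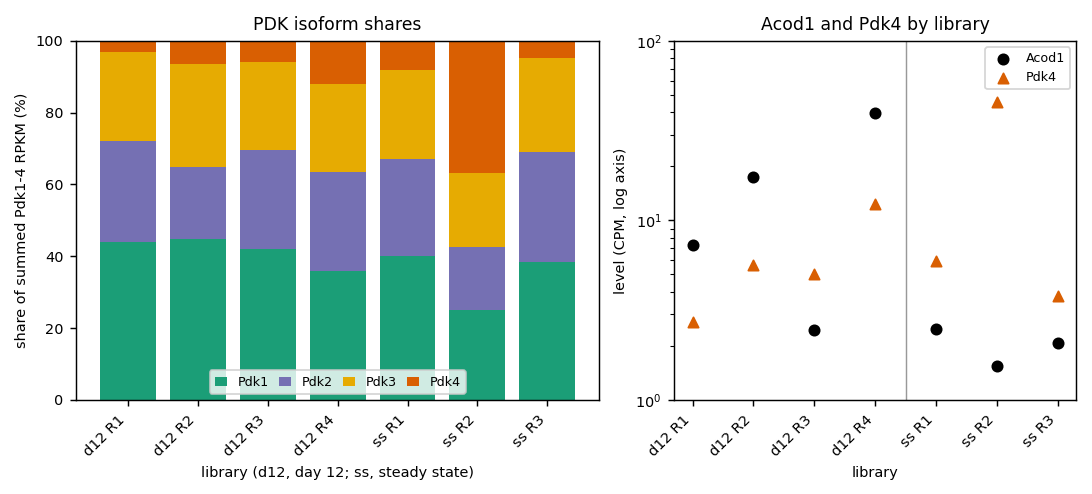
Left, share of the summed Pdk1 to Pdk4 level per kilobase of exon (%) held by each kinase gene in every library; right, CPM of Acod1 and Pdk4 by library on a log axis, with day 12 left of steady state. Pdk4 takes 36.7% in steady-state replicate 2, and Acod1 runs from 2.45 to 39.7 CPM at day 12.

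Outside the matrix, the enzymes that mirror steps of the cycle were led by Idh1, the NADP-linked isocitrate dehydrogenase of cytosol and peroxisomes. Idh1 had the highest level per kilobase of the 33 genes in both groups, 189.7 ± 25.97 RPKM at day 12 and 146 ± 12.4 RPKM in steady state (RPKM is CPM per kilobase of exon, with lengths from GENCODE M21). It had 602, 544, 527 and 429 CPM at day 12, against 369, 437 and 406 CPM in steady state. The value of day 12 replicate 4 was among those of steady state, and the gene was not called (log2 fold change 0.38, 95% interval 0.07 to 0.68, edgeR adjusted p = 0.0798), but was called without that library (adjusted p = 0.00733) and with DESeq2 (0.0469). Its mitochondrial relative Idh2 averaged 81.1 ± 6.54 CPM at day 12 and 78.8 ± 4.79 CPM in steady state (log2 fold change 0.04, 95% interval -0.19 to 0.27). Aco1, the cytosolic aconitase that also acts as an iron-regulatory protein, stood at 69.3 ± 2.35 CPM at day 12 and 60.6 ± 1.51 CPM in steady state without overlap and was not called (adjusted p = 0.148).

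The malate-aspartate shuttle carries reducing equivalents from cytosol to matrix through Mdh1 and Got1 on the cytosolic side and Mdh2 and Got2 on the matrix side. Mdh1 (ENSMUSG00000020321, chromosome 11, 21506692 to 21522367, minus strand) had 147, 122, 145 and 130.3 CPM at day 12, against 105, 112 and 101 CPM in steady state. It rose without overlap (log2 fold change 0.36, SE 0.11, edgeR adjusted p = 0.0391), and the call was lost in 6 of 15 alternatives. Got1 (ENSMUSG00000025190, chromosome 19, 43488191 to 43513044, minus strand) had 19.4, 18.02, 15.1 and 15.2 CPM at day 12, against 9.88, 11.2 and 12.6 CPM in steady state. It rose as well (log2 fold change 0.59, SE 0.14, edgeR adjusted p = 0.0194) and lost its call without steady-state replicate 1 or 2. Got2 averaged 56.4 ± 6.87 CPM at day 12 and 57.5 ± 3.79 CPM in steady state (log2 fold change -0.03, 95% interval -0.29 to 0.23). The pseudogene Got2-ps1 had 27.3% to 36.1% as many reads as Got2 in a library, which leaves the level of Got2 uncertain. Per kilobase, Got1 over Got2 was 0.438 to 0.733 at day 12, against 0.342 to 0.430 in steady state. Slc25a13, an aspartate-glutamate carrier of this shuttle outside the 33 genes, fell (16.1 ± 2.16 CPM at day 12 and 24.5 ± 2.28 CPM in steady state, log2 fold change -0.60, edgeR adjusted p = 0.0125), a call lost without steady-state replicate 2. The other aspartate-glutamate carrier, Slc25a12, averaged 32.3 ± 2.66 CPM at day 12 and 30.4 ± 1.66 CPM in steady state. It was not called (log2 fold change 0.09, edgeR adjusted p = 0.612). Nor was the oxoglutarate carrier gene Slc25a11 (log2 fold change -0.24, edgeR adjusted p = 0.216).

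Glud1, glutamate dehydrogenase, had 302, 293, 321 and 259.8 CPM at day 12, against 293, 293 and 287 CPM in steady state. The steady-state libraries lay inside the day 12 range, and the 95% interval of the log2 fold change ran from -0.22 to 0.25 around 0.01. Glud1 was the second highest of the 33 genes per kilobase, at 69.8 ± 6.04 RPKM at day 12 and 69.2 ± 0.936 RPKM in steady state. Glul, glutamine synthetase, stood at 1341 ± 207 CPM at day 12 and 1121 ± 253 CPM in steady state (log2 fold change 0.26, 95% interval -0.14 to 0.66).

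Acod1, which makes itaconate (ENSMUSG00000022126, chromosome 14, 103284413 to 103294009, plus strand), had the largest fitted change of the 33 genes and the widest spread. It had 7.29, 17.4, 2.45 and 39.7 CPM at day 12, against 2.49, 1.54 and 2.08 CPM in steady state. The value of day 12 replicate 3 was among those of steady state, and the other day 12 libraries lay above it. The log2 fold change was 3.04 (SE 0.93, 95% interval 0.83 to 5.24) and was not called with edgeR (adjusted p = 0.0614). It was called without day 12 replicate 3 (log2 fold change 3.40, adjusted p = 0.0130), with a filter of 1 CPM (0.0490) and with DESeq2 (0.00588), while without day 12 replicate 4 the log2 fold change was 2.16 (adjusted p = 0.0782). Neutrophils also express Acod1, and of 8 neutrophil markers Ly6g had no read. S100a9 and Cxcr2 stayed at or below 0.842 and 0.116 CPM in every library. Both were highest in day 12 replicate 4, where Acod1 was highest, and had no read in steady state. These highest values were 29 reads for S100a9 and only 4 reads for Cxcr2. S100a9 was next highest in day 12 replicate 3, with 8 reads, where Acod1 was lowest. Retnlg, also without a read in steady state, was highest in that replicate, with 6 reads. Camp had reads in steady-state replicate 1 alone. S100a8 stood at 1.03 to 1.74 CPM at day 12, highest in replicate 3, against 0.534 to 0.896 CPM in steady state. Mmp8 went the other way, at 0.029 to 0.053 CPM at day 12, against 0.741 to 1.31 CPM in steady state. The neutrophil list summed to 109.5 to 198 CPM at day 12, against 432 to 449 CPM in steady state, nearly all of it the receptor gene Csf3r, which other myeloid cells express too. Among the 8 dendritic cell and monocyte markers, Plac8 was ordered like Acod1 over the day 12 libraries, at 25.7, 92.2, 4.10 and 143 CPM in replicates 1, 2, 3 and 4, against 0.476 to 1.07 CPM in steady state. Ly6c2, a monocyte marker, was also highest in day 12 replicates 2 and 4, at 0.478 and 0.755 CPM, and was at most 0.0789 CPM in the other 5 libraries. Ccr2, the chemokine receptor of monocytes, stood at 3.98 to 8.14 CPM at day 12, against 10.4 to 12.6 CPM in steady state, and Cd209a was highest in day 12 replicate 3 (373 CPM), where Acod1 was lowest. The part of such cells in the values of Acod1 was not tested.

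**Figure D5:**
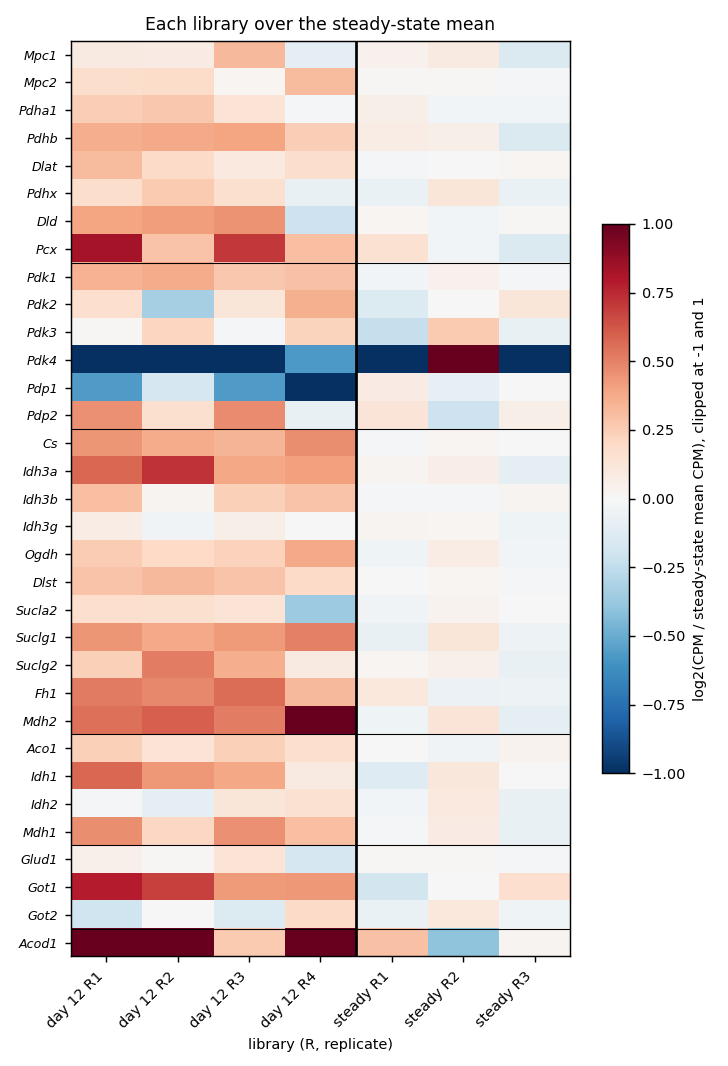
Each cell gives log2 of a library's CPM over the mean CPM of the 3 steady-state libraries, clipped at -1 and 1, for the 33 genes grouped by role (rows) and the 7 libraries (columns, day 12 left of the line). Day 12 replicate 4 is blue for Dld and Sucla2 and dark red for Mdh2, and Pdk4 is red in steady-state replicate 2 alone.

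Within a group, the coefficient of variation was under 10% for 18 of the 33 genes at day 12 and for 27 in steady state. Its median over the 33 genes was 8.88% for the day 12 libraries and 5.86% for the steady-state libraries. The maxima were 98.9% for Acod1 at day 12 and 128% for Pdk4 in steady state. Set against the steady-state mean, 29, 27, 29 and 24 of the 33 genes were higher in day 12 replicates 1, 2, 3 and 4. In steady-state replicates 1, 2 and 3, 14, 22 and 9 genes were above that same mean. Replicate 4 was the lowest of the day 12 libraries for 13 genes and the highest for 11. The heat map of single libraries shows these deviations gene by gene.

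Of 45 further genes of the pathway, 39 were tested, of which 11 rose and 3 fell (35.9% called, against 20.3% of all genes). Their median log2 fold change was 0.26. The rises with the lowest p were Acly, ATP citrate lyase, which turns exported citrate into cytosolic acetyl-CoA (3101 ± 517 CPM at day 12 and 1292 ± 71.9 CPM in steady state, log2 fold change 1.26, edgeR adjusted p = 0.000765), and Me1, the cytosolic malic enzyme that makes NADPH. Me1 had 24.96, 26.2, 27.5 and 48.9 CPM at day 12, against 6.58, 6.89 and 3.61 CPM in steady state (log2 fold change 2.48, edgeR adjusted p = 0.00103). The groups were far apart for both. Prodh, which starts the breakdown of proline to glutamate, rose to 47.7 ± 9.58 CPM at day 12, against 19.1 ± 1.84 CPM in steady state (log2 fold change 1.32, adjusted p = 0.00104). Besides Slc25a13, the falls were Slc38a2, a neutral amino acid transporter that carries glutamine (67.9 ± 9.88 CPM at day 12 and 114 ± 6.68 CPM in steady state, log2 fold change -0.75, adjusted p = 0.00379), and Pck2, which makes phosphoenolpyruvate from oxaloacetate in mitochondria. Pck2 averaged 11.7 ± 3.69 CPM at day 12 and 22.99 ± 2.18 CPM in steady state (log2 fold change -0.98, adjusted p = 0.0142), and lost its call without steady-state replicate 1 or 2. The calls of Acly, Me1, Prodh, Sdhd and Slc38a2 held in all 15 alternative fits.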

How the data were processed

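The authors deposited raw counts of reads by gene (Ensembl identifier, symbol, GRCm39 coordinates). The submitters' processing notes name STAR 2.7.11a, Subread 2.0.6 with featureCounts, and DESeq2 1.40.2, among others. No source used here gives the annotation release, the strand setting or the handling of multi-mapping reads, which bears on genes with overlapping neighbours or pseudogene copies. Columns were matched to samples through library names, and groups were read from sample titles. The labels' protocol speaks of 3 replicates per condition, while titles give 4 for day 12.

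The counts were fitted with edgeR 4.0.16 in R 4.3.3 (quasi-likelihood, robust, TMM factors, group as the only term, Benjamini-Hochberg adjustment over 15981 genes). Genes entered by filterByExpr (minimum count 10, minimum total 15). Each standard error is the log2 fold change over the root of its F value. Alternatives used limma 3.58.1, DESeq2 1.42.0, other scalings and filters, left-out libraries and a replicate block. The procedure was tested on simulated data for a whole set of genes, where it missed most changes of 1.5-fold. How often it misses them in genes as precise as the members was not worked out. The median standard error on the log2 scale was 0.12 over the members, against 0.18 over all genes. A missed call does not show that a member was unchanged. RPKM used the union of exons in GENCODE M21 (33 of 33 genes matched), which can overstate the length in use and understate a level.

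The members, lists, elements and rules were chosen with earlier results of these data known. Named in full were called members, members with a fitted fold of at least 1.5 in either direction, and Cs, Idh3a, Pdha1 and Glud1. Of the further genes, the direct neighbours and the 4 calls with the lowest p in each direction were named, and some of these are not reported here. The 7 values of Dld, Sucla2, Pcx, Pdp1 and Idh1 are given too, chosen after they were seen. Slc25a12 and Slc25a11, of the same shuttle as Slc25a13, were also named after their values were seen.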

Additional observations from a re-analysis of the deposited data

Results flagged for a closer look

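Day 12 replicate 4 stood apart from the other 3 day 12 libraries by a Dixon test for 4 of 46 genes examined. Chance flags about 1 in 20 genes. Genes of 1 library can vary together, so this rate cannot decide whether the library as a whole was unusual. Day 12 replicate 4 was low for Dld (53.3 CPM) and Sucla2 (31.3 CPM) and high for Mdh2 (176 CPM) and Me1 (48.9 CPM).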

How the results depend on the processing

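Replicate numbers are shared between the groups, and the labels do not say which mice or pools the replicates were. Libraries of replicate number 1, 2 and 3 deviated from their group means with correlations of -0.141, 0.00775 and 0.203. Day 12 replicate 3 correlated best with its own number, but not every library did. With so few libraries, these values cannot decide whether the numbers pair the samples. With the number as a replicate block (replicates 1 to 3, day 12 replicate 4 left out) 14 members were called, 14 higher. That fit called 4246 genes over the whole table, against 3242 in the main fit. With 1 library left out the members called ran from 1 to 17 (higher 1 to 17, lower 0 to 1), the genes called from 1761 to 4599 (higher 857 to 2188, lower 904 to 2411) and the further pathway genes called from 5 to 12 higher and 1 to 4 lower. With all 7 libraries, the other scalings, filters and tools called 6 to 12 members. The fit without the filter on low counts called 6, with 3151 genes called over the whole table. DESeq2 called 12, with 3981 genes called over the whole table. No sign of a called member turned in any of the 15 alternatives. The median of all genes moved by at most 0.04 on the log2 scale between scalings. Of members that were not called, the sign changed for Got2 in 5 alternatives, Glud1 in 2 and Pdk2, Pdk4 and Idh3g in 1 each. The cause was not tested. The small groups, 4 day 12 and 3 steady-state libraries, limit precision. The median standard error on the log2 scale was 0.18 over all genes and 0.12 over the 33 members.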
